A study of Mus musculus with 2 samples.

Results

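Fibroblasts of the kidney interstitium were picked out of scRNAseq data of 1 control and 1 ischemic mouse kidney by their own transcripts. A cell was taken as a fibroblast if it carried at least 4 unique molecular identifiers (UMIs, each marking 1 captured RNA molecule) of Dcn, Col1a1, Col1a2 and Pdgfra together, making up at least 0.05% of its UMIs. This sum also had to be at or above that of the mural genes Acta2, Tagln, Myh11, Rgs5 and Notch3 and above that of the endothelial genes Pecam1, Kdr, Flt1, Emcn and Plvap, and the cell had to have no UMI of the leukocyte gene Ptprc. The rule found 95 cells among 25702 kept cells, 43 of 12586 from the control kidney and 52 of 13116 from the ischemic one. These made up 0.342% of control cells (95% Clopper-Pearson interval 0.247–0.460) and 0.396% of ischemia cells (0.296–0.520), and the intervals overlap.

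Both kidneys were of wildtype male C57BL/6J mice aged 19 weeks. The ischemic kidney had 27 min of ischemia and then 24 h of reperfusion, and the control was a contralateral kidney without injury. Whether both kidneys came from 1 mouse is not given for the libraries, and the surgery described in the methods of the study, with another clamping time and removal of the other kidney, differs from these labels. A figure caption of the study, like the labels, gives ischemia of 1 kidney, with the uninjured other kidney also taken at 24 h. Whole kidneys were digested with enzymes and trypsin and captured in droplets, so the fibroblasts recovered are those that this digestion released. The deposited UMI counts totalled 142686238 for the control library and 142959737 for the ischemia library. Each condition had 1 library, so the conditions could not be tested against each other, an effect of ischemia and one of the library cannot be told apart, and all intervals given here cover counting error only.

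Interstitial fibroblasts lie between tubules and capillaries and make the collagens, proteoglycans and glycoproteins of the kidney's connective tissue. Those of the cortex and medulla form a network around the tubules, while adventitial fibroblasts form a sheath around arteries and larger vessels and carry Pi16, Clec3b and Mfap5. After injury, fibroblasts respond to cytokines and to the TGF-beta family, and in lasting injury they are the main source of scar matrix.

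The members carried the genes that chose them in different proportions in the 2 libraries, which is given as a description only. Levels are in CPM, the UMIs of a gene scaled to a common total of member UMIs per library. Dcn, which encodes decorin, a small proteoglycan that binds collagen fibrils, had 1251 UMIs (4168 CPM) in control and 602 UMIs (1545 CPM) in ischemia members. Col1a1 and Col1a2, the chains of type I collagen, had 226 and 373 UMIs in control members and 885 and 893 in ischemia members. Pdgfra, the receptor for PDGF-A, had 115 UMIs (383 CPM) in control and 218 UMIs (559 CPM) in ischemia members. Dcn thus gave 63.7% of the rule's UMIs in control members and 23.2% in ischemia members, and a Dcn UMI was found in 33 of 43 and 22 of 52 members. Per cell, the sum of the 4 genes was lowest at 4, median at 19 and highest at 379 UMIs in control members, and 4, 13 and 656 in ischemia members.

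Close to the threshold, 5 control and 7 ischemia members had exactly 4 UMIs of the 4 genes, and 4 cells of each library had exactly 3 and met the other conditions. A further 16 control and 5 ischemia cells had enough UMIs but fell under 0.05%. In the ischemia library the comparison with the mural genes removed 19 cells, against 3 in the control. No member barcode occurred in both libraries, in which 58 kept barcodes were shared. The members' UMIs totalled 300163 for the control and 389761 for the ischemia library. Their median depth was 5638 and 4897.5 UMIs and 2117 and 1939 genes per cell, with a median of 8.03% and 7.02% mitochondrial UMIs. The deepest single cell held 9.72% and 6.74% of the members' UMIs, so that 1 cell can weigh on a gene's value.

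The label was checked against genes outside the rule. The genes below were the most enriched in members over all other kept cells. They were named by a fixed rule, and since the cells were chosen by genes that go with them, their enrichment is a description. Col3a1, the chain of type III collagen, had 84.4% of all its UMIs of the series in these 95 cells, Mfap5, a microfibril protein, 90.9%, Lum, the proteoglycan lumican, 92.5%, and Sfrp4, a secreted Wnt inhibitor, 92.8%. C7, a complement component, had 92.0% and Smoc2, a matrix protein of injured kidney stroma, 80.6%. The other genes of this kind were Clec3b, Mmp3, Ltbp2, Csmd1, Fbln1, Col5a1, Adamts2, Abi3bp and Col6a1. Col3a1 was found in 30 control and 39 ischemia members, but Sfrp4 in 5 and 9 and Lum in 12 and 7. The cell with most UMIs of the gene held 68.3% of the control UMIs of Sfrp4. Such a cell held 50% and 49.8% of the ischemia UMIs of Lum and C7. Of 25 further fibroblast genes, 24 had a UMI in control members and 25 in ischemia members. A single UMI is no check of the label, since all 15 proximal tubule markers had 1 in control members too. Summed, the 25 genes stood at 16604 and 17706 CPM in members, against 375 and 461 CPM in all other kept cells. Mgp, matrix Gla protein, had the most UMIs, with 2721 of 4984 (9065 CPM) in control and 3583 of 6901 (9193 CPM) in ischemia members. Pdgfrb, the PDGF-B receptor, the transcription factors Meis1 and Tcf21 and Col14a1 had ratios of ischemia to control CPM of 1.46, 1.22, 0.725 and 0.897. Of these 25 genes 19 had at least 30 UMIs over both libraries, of which 4 were at least 2-fold higher and 3 at least 2-fold lower in the ischemia library, with a median log2 ratio of -0.036, where 13.6% and 7.73% of all 3997 genes compared were higher and lower. Summed over the members, these genes do not go against the label of fibroblasts, but the label was not checked cell by cell. Some members of both libraries had no UMI of Dcn, Col1a1 or Col3a1. Control cells of 6674, 4770 and 5716 UMIs and an ischemia cell of 13464 UMIs had none of Pdgfra either. These entered by Col1a2 alone, so their label rests on 1 gene. Also without Dcn, Col1a1 and Col3a1 were an ischemia cell with 26 Tnc UMIs and another with 17 Tnc and 10 Inhba UMIs.

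Markers of other cell types were summed over the members. T, NK and B cell markers summed to 0 UMIs in control members and 1 in ischemia members, macrophage and dendritic cell markers to 16 and 17, with Lyz2 and Adgre1 at 0 in both, and neutrophil markers to 1 and 9. Mesothelial markers summed to 24 and 21 UMIs, led by Wt1, which podocytes also carry, with 24 and 19, while Msln and Upk3b were at 0. Among the endothelial markers, Tie1 was at 0 in both, while the list as a whole stood at 673 and 526 CPM, led by Eng. Podocyte markers summed to 1126 and 829 CPM, led by Podxl, with 89.2% of the ischemia UMIs in 1 cell, and those of the distal tubule and collecting duct to 1119 and 77.0 CPM, with 77.4% of the control UMIs in 1 cell. Podocyte markers reached at least 10 UMIs in 3 control members and 1 ischemia member, distal tubule and collecting duct markers in 1 control member, and Schwann cell markers at least 3 UMIs in 2 ischemia members. Markers of smooth muscle, pericytes and mesangium outside the rule stood at 1099 and 1147 CPM, led by Mylk, with Cnn1 at 0 in both. Gata3, Piezo2 and Itga8, which mark mesangial cells, summed to at least 5 UMIs in 6 control and 10 ischemia members. The part of such cells in the results was not tested, and values without these members are among the alternatives.

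Genes used as tubule markers also differed between the libraries in the members, and whether this RNA came from tubules was not tested. The 9 markers of injured tubules summed to 1276 CPM in control and 10299 CPM in ischemia members, against 3954 and 30589 CPM in all other kept cells. Spp1, osteopontin, supplied nearly all of this, with 333 UMIs (1109 CPM) in control and 3832 UMIs (9832 CPM) in ischemia members, and was at 10130 and 72597 CPM in thick ascending limb (TAL) cells. Havcr1 had 0 and 30 UMIs, Clu 7 and 84, and Lcn2 7 and 35. The 15 proximal tubule markers summed to 4657 and 1829 CPM, led by Kap, and 12 of the 13 compared were at least 2-fold lower in the ischemia library, while the list stood at 16723 and 10663 CPM in all other cells. The part of tubule RNA in the members' values was not tested for genes that tubules also carry, and TAL values are given beside some of these genes.

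**Figure D1:**
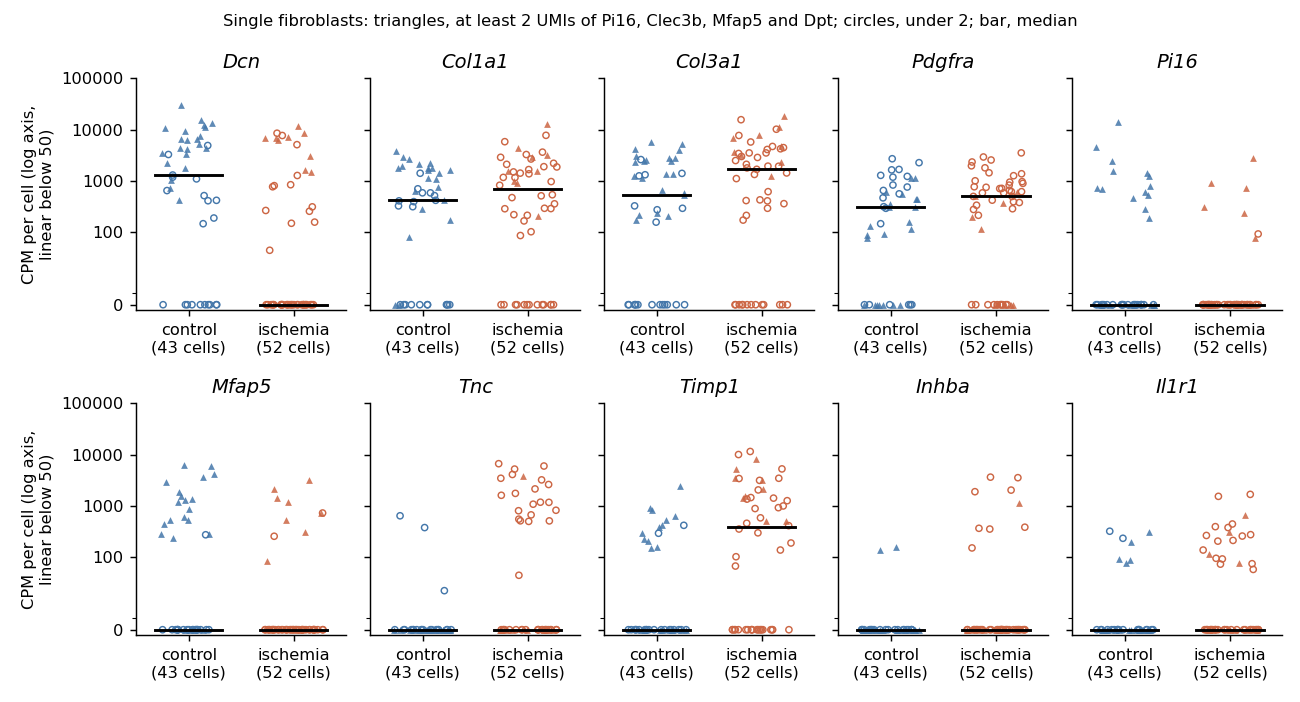
CPM of 10 genes in each fibroblast (log axis, linear below 50 CPM), with control cells in blue, ischemia cells in red, triangles for cells with at least 2 UMIs of Pi16, Clec3b, Mfap5 and Dpt, circles for the others, and a bar at the median. Tnc was detected in 3 control and 22 ischemia cells, Timp1 in 14 and 32, and Dcn in 33 and 22.

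The question was how fibroblasts of the ischemic kidney differed from those of the control kidney. For each gene, UMIs were summed over the members of a library and divided by the members' total, and the 3997 genes with at least 30 UMIs over both libraries were compared, outside of any test. Ratios are of ischemia to control CPM, with exact 95% intervals. The ratio was at least 2 for 544 genes (13.6%) and at most 0.5 for 309 genes (7.73%), so 21.3% lay past 2-fold in either direction. The median log2 ratio over all 3997 genes was 0.18. Of the genes past 2-fold, 63.8% were higher in the ischemia library. When ratios were centred on the median of genes with at least 100 UMIs, which subtracts 0.16 from each log2 ratio, 381 genes were higher and 412 lower, so 48.0% were higher. Lists of genes are read against these shares, and the genes of the rule were left out of all lists.

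Collagens were higher in the ischemia library as a group. Of 15 listed, 14 had enough UMIs, and 11 of the 14 lay at least 2-fold higher and 0 at least 2-fold lower, with a median log2 ratio of 1.62. The median was 1.11 after thinning and 0.997 when CPM were averaged over cells. Col3a1 had 322 UMIs (1073 CPM) in control and 1538 UMIs (3946 CPM) in ischemia members, a ratio of 3.68 (3.26–4.16). It was detected in 30 of 43 control and 39 of 52 ischemia members, against 0.246% and 1.25% of TAL cells, and without the cell that held most of its UMIs the ratio was 2.85. Col5a1 and Col5a2, which control the width of type I collagen fibrils, had ratios of 2.88 (2.0–4.23) and 4.92 (3.29–7.62). The basement membrane collagens Col4a1 and Col4a2 were at 3.28 and 2.29, and Col18a1 at 2.02. Col15a1, of the border between basement membrane and stroma, had 16 UMIs (53.3 CPM) in control and 160 UMIs (411 CPM) in ischemia members, a ratio of 7.7 (4.6–13.8). Col6a1, Col6a2 and Col14a1 did not follow, at ratios of 1.12, 1.11 and 0.897, while Col6a3 was at 3.58 (2.5–5.26). TAL cells of the ischemia library held 0.641 CPM of Col3a1, against 3946 CPM in the members.

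Genes that fold, trim and cross-link collagen were higher in part. Of 13 compared, 6 were at least 2-fold higher and 0 at least 2-fold lower, with a median log2 ratio of 0.89. Serpinh1, the collagen chaperone HSP47, had 121 UMIs (403 CPM) in control and 355 UMIs (911 CPM) in ischemia members, a ratio of 2.26 (1.83–2.8). Loxl2, which cross-links collagen, was at 4.13 (2.15–8.72), and Plod1, a lysyl hydroxylase, at 2.54 (1.22–5.78). Bmp1 and Adamts2, which cut the ends off procollagen, were at 2.18 (1.25–3.97) and 2.33 (1.64–3.35). Lox, at 1.59 (0.865–3.02), and Loxl1, at 0.932, stayed within 2-fold, and Pcolce, which enhances Bmp1, was at 0.622 (0.491–0.785). The median of this list was 0.13 when CPM were averaged over cells, 0.59 without the deepest member of each library and 0.20 after thinning, which left 10 of the genes and in which Bmp1 and Adamts2 turned to log2 ratios of -0.25 and -0.47.

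Matrix proteoglycans and glycoproteins had 6 of 23 genes at least 2-fold higher, 3 at least 2-fold lower and a median log2 ratio of 0.22, or -0.091 when CPM were averaged over cells. Tnc, tenascin-C, a matrix glycoprotein that appears in wounds, had 5 UMIs (16.7 CPM) in control and 483 UMIs (1239 CPM) in ischemia members. It had the highest ratio of the named genes, 74.4 (31.7–230.2), and 65.3 without its top cell. Of control members 6.98% and of ischemia members 42.3% carried a Tnc UMI, and after thinning of each cell to 1000 UMIs 4.65% and 35.3% did, against 0% in thinned TAL cells of both libraries. Median depths were 5638 and 4897.5 UMIs in members and 14888.5 and 21412 in TAL cells. Thbs1, thrombospondin-1, which can activate latent TGF-beta, had 17 UMIs (56.6 CPM) in control and 226 UMIs (579.8 CPM) in ischemia members. Its ratio was 10.2 (6.25–17.9), and 6.74 without its top cell, with 15.3 and 25.5 CPM in TAL cells. Vcan, the large proteoglycan versican, was at 4.86 (2.85–8.83), Has1, a hyaluronan synthase, at 5.39 (2.28–15.5), and Fbln2 at 2.38 (1.44–4.11). Ogn and Fmod, small proteoglycans, were lower, at 0.143 (0.0914–0.217) and 0.335 (0.142–0.731), as was Mfap5. Among the most abundant of these genes the ratios were small, with Mgp at 1.01 (0.965–1.07), Sparc at 1.21 (1.1–1.34) and Bgn at 1.19 (1.03–1.39).

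**Figure D2:**
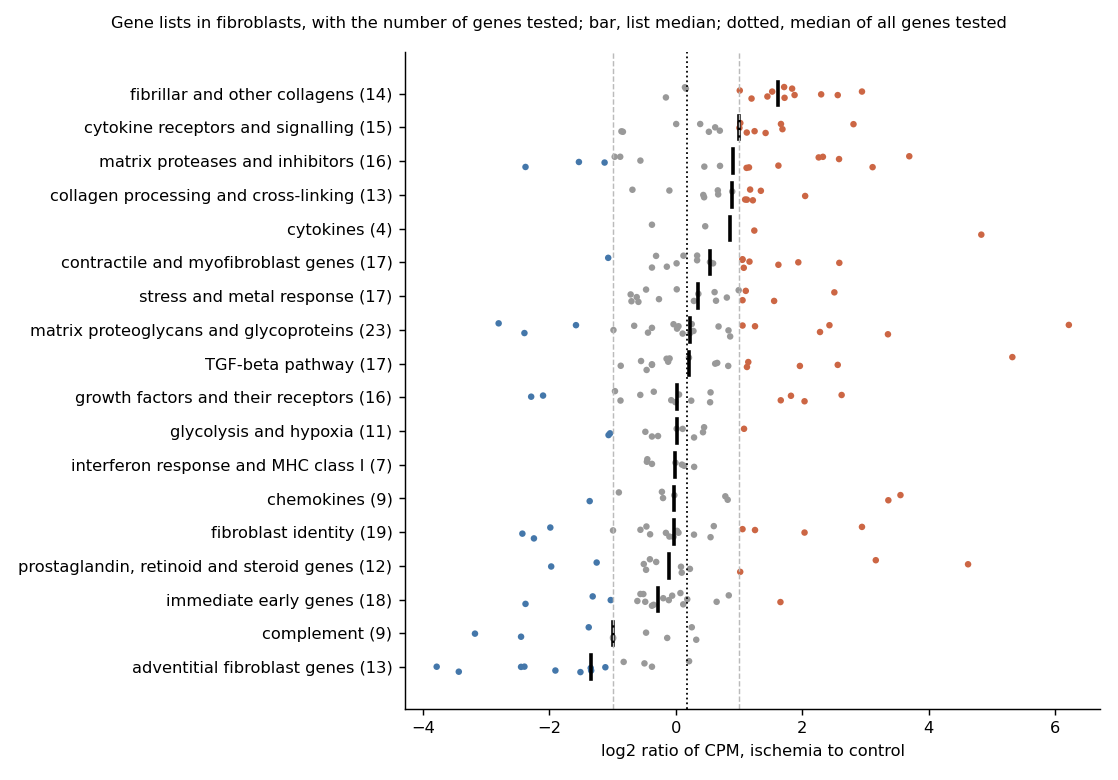
Log2 ratios of ischemia to control CPM for each compared gene of 18 lists (red, at least 2-fold higher; blue, at least 2-fold lower; grey, within 2-fold), with a bar at each list's median and the number of genes compared in brackets. Collagens lie highest, at a median of 1.62, and adventitial fibroblast genes lowest, at -1.35, while the dotted line marks the median of all genes at 0.18.

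Matrix proteases and their inhibitors had 8 of 16 genes at least 2-fold higher, 3 at least 2-fold lower and a median log2 ratio of 0.91, but the median was -0.040 after thinning and 0.32 when CPM were averaged over cells. Timp1, an inhibitor of metalloproteinases, had 49 UMIs (163 CPM) in control and 823 UMIs (2112 CPM) in ischemia members, a ratio of 12.9 (9.69–17.6) and of 8.91 without its top cell. It was found in 14 of 43 and 32 of 52 members, and after thinning in 13.95% and 31.4% of them, against 0.123% and 5.71% of TAL cells, where it was at 0.522 and 77.0 CPM. Timp2 and Timp3, of the same family, were at 0.544 (0.442–0.668) and 0.678 (0.575–0.801). Mmp3, stromelysin-1, had 17 UMIs (56.6 CPM) in control and 191 UMIs (490.0 CPM) in ischemia members, a ratio of 8.65 (5.26–15.2) and of 5.29 without its top cell. Mmp2, gelatinase A, had 24 UMIs (80.0 CPM) in control and 6 UMIs (15.4 CPM) in ischemia members, a ratio of 0.193 (0.0644–0.483). Adam12, at 4.79 (2.9–8.38), and Adamts4, an aggrecanase, at 5.99 (2.98–13.6), were higher, and Mmp23, at 0.346 (0.199–0.583), and Serpinf1, at 0.458 (0.312–0.666), lower, although in members with at least 2 UMIs of Pi16, Clec3b, Mfap5 and Dpt Adamts4 was at a log2 ratio of -1.12 and Serpinf1 at 0.068. Mmp3 and Timp1, a protease and an inhibitor of it, were thus both higher. A single cell held 42.9% and 35.6% of their ischemia UMIs.

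In the TGF-beta family, ligands and a receptor were higher and most signalling genes were within 2-fold. Of 17 genes compared, 5 were at least 2-fold higher, 0 at least 2-fold lower, and the median log2 ratio was 0.21, against 0.18 for all genes. The median was -0.32 without members with over 1% of tubule marker UMIs and -0.25 after thinning. Inhba, the subunit of activin A, had 3 UMIs (9.99 CPM) in control and 156 UMIs (400.2 CPM) in ischemia members, a ratio of 40.0 (13.5–196). The ischemia UMIs came from 9 cells, and 1 of these held 63 of them. Tgfb1 was at 3.9 (2.26–7.14), the type I receptor Tgfbr1 at 5.9 (3.22–11.8) and Ltbp1, which stores latent TGF-beta in matrix, at 2.21 (1.37–3.68). The type II receptor Tgfbr2 was at 0.683 (0.479–0.973). Smad2, Smad3 and Smad4, which carry the signal to the nucleus, were at 1.16, 0.904 and 1.78, the inhibitor Smad7 at 1.58 and the target Ccn2 at 0.547 (0.44–0.679).

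Growth factors and their receptors had 4 of 16 at least 2-fold higher, 2 at least 2-fold lower and a median log2 ratio of 0.022. Fgf2 was at 6.16 (2.43–20.0), and Hgf, the ligand of Met on tubules, at 3.16 (1.9–5.53). Igfbp5 had 238 UMIs (793 CPM) in control and 1268 UMIs (3253 CPM) in ischemia members, and its relative Igfbp6 had 203 UMIs (676 CPM) in control and 54 UMIs (139 CPM) in ischemia members, so these IGF-binding proteins stood in opposite directions, at 4.1 and 0.205. Sfrp1, a secreted Wnt inhibitor, was at 0.233 (0.134–0.39), with 181 and 42.7 CPM in TAL cells.

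Cytokine genes were sparse. Il11, a cytokine of the IL-6 family that acts on fibroblasts, had 1 UMI (3.33 CPM) in control and 37 UMIs (94.9 CPM) in ischemia members, a ratio of 28.5 (4.81–1156), and Csf1, the macrophage growth factor, was at 2.37 (1.27–4.68). Il6 had 1 and 19 UMIs, Lif 0 and 10 and Clcf1 0 and 8, too few to be compared. Il33 was at 1.38 (0.992–1.94). Of 15 cytokine receptor and signalling genes, 8 were at least 2-fold higher and 0 at least 2-fold lower, with a median log2 ratio of 1.01. They included Osmr, the oncostatin M receptor, at 3.17 (2.18–4.73), Tnfrsf12a, the TWEAK receptor, at 3.22 (1.64–6.89) but at a log2 ratio of -0.25 after thinning, Stat3 at 2.37 (1.62–3.54) and Nfkb1 at 2.68 (1.63–4.58), and after thinning the list's median was 0.13.

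The study concerns IL-1 and its receptor, so these genes were read in fibroblasts too. Il1r1, the signalling receptor (ENSMUSG00000026072, chromosome 1 of GRCm38 from 40225080 to 40317257), had 9 UMIs (30.0 CPM) in control and 82 UMIs (210.4 CPM) in ischemia members. The ratio was 7.02 (3.52–15.9), and 5.07 without the top cell. An Il1r1 UMI was found in 7 of 43 control members (16.3%) and 20 of 52 ischemia members (38.5%), against 0.369% and 1.07% of TAL cells. After thinning, the shares were 0% and 13.7% of members and 0% of TAL cells in both libraries. In the control library Il1r1 stood at 30.0 CPM in fibroblasts, 29.7 CPM in endothelial and 19.7 CPM in mural cells, and in the ischemia library at 210.4, 27.7 and 33.1 CPM. The ligand Il1b had 1 UMI in each library, Il1a 0 in both, and the receptor antagonist Il1rn 0 and 1. Il1rap, the second chain of the receptor, had 4 and 6 UMIs and Myd88 9 and 5.

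Chemokines had 2 of 9 genes at least 2-fold higher, 1 at least 2-fold lower and a median log2 ratio of -0.023, and beside the 13.6% and 7.73% of all genes nothing is read from so few. Cxcl14 had 54 UMIs (179.9 CPM) in control and 721 UMIs (1849.8 CPM) in ischemia members, a ratio of 10.3 (7.79–13.8) and of 5.82 without the top cell, which held 45.4% of the ischemia UMIs. Ccl7, which attracts monocytes, was at 11.7 (4.36–44.5). Cxcl12, the stromal ligand of Cxcr4, had 190 UMIs (633 CPM) in control and 96 UMIs (246 CPM) in ischemia members, a ratio of 0.389 (0.301–0.50). Ccl2 had 0 and 4 UMIs and Cxcl10 0 in both, so neither could be compared.

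Several of these genes are known targets of the transcription factor AP-1, and their promoters were searched for its site, TGANTCA, on the window from 250 bases before to 50 after the start (RefSeq, build GRCm38.p6), which reads the same on both strands. The motif was found in 7.81% of 32851 windows. Of the genes Mmp3, Il11, Tnc, Timp1, Inhba, Ptgs2, Pi16, Ogn and C3, it was in the window of Mmp3 and in 1 of 2 windows of Il11, and they are shown because both genes were higher in the ischemia library, with the match in capitals. The Mmp3 gene lies on chromosome 9 from 7445822 to 7455975 and Il11 on chromosome 7 from 4772373 to 4782859, so the Mmp3 window holds the start of the gene and that of Il11 an alternative start inside it. That of Mmp3 is chr9:7445572-7445871 on the plus strand, with the match 46 bases before the start, and that of Il11 is chr7:4778092-4778391 on the minus strand, with the match 98 bases before.
Mmp3: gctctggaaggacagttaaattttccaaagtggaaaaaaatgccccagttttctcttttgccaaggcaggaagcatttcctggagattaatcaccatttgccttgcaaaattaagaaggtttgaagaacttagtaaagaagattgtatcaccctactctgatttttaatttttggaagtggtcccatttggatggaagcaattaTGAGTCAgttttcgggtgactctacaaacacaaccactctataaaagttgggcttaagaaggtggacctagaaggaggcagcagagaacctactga
Il11: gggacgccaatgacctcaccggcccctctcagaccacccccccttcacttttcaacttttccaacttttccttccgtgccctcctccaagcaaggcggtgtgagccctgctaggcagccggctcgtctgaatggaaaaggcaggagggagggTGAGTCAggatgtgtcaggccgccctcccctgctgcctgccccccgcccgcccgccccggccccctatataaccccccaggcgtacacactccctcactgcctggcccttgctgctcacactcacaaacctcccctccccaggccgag
A match describes these letters only, and their use in these cells was not measured.

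Of the other genes with the highest ratios, some encode adhesion, signalling and metabolic proteins. Itga5, the integrin chain that binds fibronectin, had 1 UMI (3.33 CPM) in control and 59 UMIs (151 CPM) in ischemia members, a ratio of 45.4 (7.84–1825). Lrrc32, which holds latent TGF-beta on the cell surface, was at 10.5 (4.27–33.3), and the transcription factor Runx1 at 9.55 (3.88–30.4). Aldh1a2, which makes retinoic acid, had 11 UMIs (36.6 CPM) in control and 128 UMIs (328 CPM) in ischemia members, a ratio of 8.96 (4.84–18.4). Plcb1, a phospholipase C, had 45 UMIs (149.9 CPM) in control and 643 UMIs (1649.7 CPM) in ischemia members, a ratio of 11.0 (8.13–15.2), with 266 and 259 CPM in TAL cells. Slc39a14, a zinc and iron transporter, had a ratio of 15.1 that was 5.99 without its top cell, and Chst11, Fam126a and Supt3 were at 14.1, 11.2 and 7.89. In TAL cells, Slc39a14 was at 24.5 and 35.5 CPM, Chst11 at 22.6 and 14.5 CPM and Supt3 at 54.1 and 47.7 CPM. Ptgs2, cyclooxygenase-2, had 1 UMI (3.33 CPM) in control and 32 UMIs (82.1 CPM) in ischemia members, a ratio of 24.6 (4.12–1003).

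**Figure D3:**
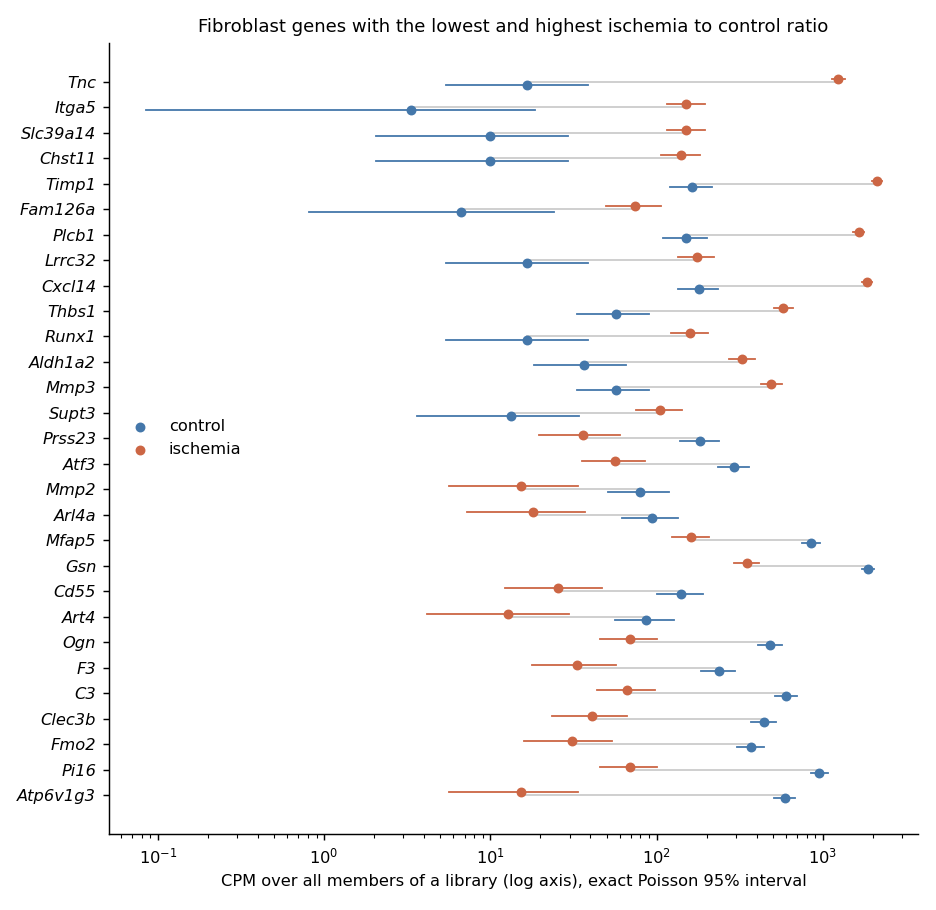
CPM over all fibroblasts of the control (blue) and ischemia library (red) on a log axis, with exact Poisson 95% intervals, for 14 of the 15 genes of highest ratio and the 15 of lowest ratio under the naming rule. Tnc stands at 16.7 and 1239 CPM and Pi16 at 953 and 69.3 CPM.

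Genes of adventitial fibroblasts were lower in the ischemia library. Of 15 listed, 13 had enough UMIs, of which 9 were at least 2-fold lower and 0 at least 2-fold higher, with a median log2 ratio of -1.35. Pi16, a peptidase inhibitor, had 286 UMIs (953 CPM) in control and 27 UMIs (69.3 CPM) in ischemia members, a ratio of 0.0727 (0.0471–0.108). In the control library 1 cell held 65.4% of its control UMIs, and the ratio was 0.201 without that cell. Members held 15.7% of all Pi16 UMIs of the series. Endothelial cells carried Pi16 too, at 156 and 80.6 CPM, with a ratio of 0.516 (0.463–0.574). Clec3b, tetranectin, had 133 UMIs (443 CPM) in control and 16 UMIs (41.1 CPM) in ischemia members, a ratio of 0.0926 (0.0515–0.156), and Mfap5 had 255 UMIs (849.5 CPM) in control and 63 UMIs (162 CPM) in ischemia members, a ratio of 0.19 (0.142–0.252). Cd55, which protects from complement, was at 0.183 (0.082–0.371), Dpp4 at 0.267 (0.144–0.472), Dpt at 0.394 (0.227–0.664) and Scara5 at 0.352 (0.199–0.601), although Scara5 was at a log2 ratio of 1.43 in members with under 2 UMIs of Pi16, Clec3b, Mfap5 and Dpt. Ly6a, which is also carried by endothelium, was the one listed gene above 1, at 1.16 (0.965–1.39).

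The complement list had 3 of 9 at least 2-fold lower, 0 at least 2-fold higher and a median log2 ratio of -0.99. This median was -0.044 over 5 genes in members with under 2 UMIs of Pi16, Clec3b, Mfap5 and Dpt. Beside the 13.6% and 7.73% of all genes higher and lower, nothing is read from so few as a group. C3, the central component, had 181 UMIs (603 CPM) in control and 26 UMIs (66.7 CPM) in ischemia members, a ratio of 0.111 (0.0704–0.167), while it was at 2.68 (2.58–2.78) in all other kept cells. C1ra was at 0.385 (0.187–0.756), Cd55 is also on this list, and C7 was at 1.19. Other genes with the lowest ratios were Gsn, the actin-severing gelsolin, with 563 UMIs (1876 CPM) in control and 136 UMIs (349 CPM) in ischemia members, a ratio of 0.186 (0.153–0.225), and Fmo2, a flavin monooxygenase, at 0.0833 (0.0418–0.151). F3, tissue factor, was at 0.141 (0.0716–0.257), Prss23 at 0.196, Arl4a at 0.193 and Art4 at 0.148. Fmo2 was at 27.5 and 5.61 CPM in TAL and 249 and 148 CPM in proximal tubule cells. TAL cells held F3 at 15.9 and 51.4 CPM, Prss23 at 30.0 and 27.5 CPM and Arl4a at 26.1 and 21.2 CPM. Atp6v1g3, a proton pump subunit of intercalated cells, had the lowest ratio, but 92.7% of its 177 control UMIs came from 1 cell, which was the member with collecting duct markers.

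Cells with adventitial genes were fewer in the ischemia library. Cells with at least 2 UMIs of Pi16, Clec3b, Mfap5 and Dpt, a split chosen after the values were seen, were 22 of 43 control members (51.2%, 35.5–66.7) and 9 of 52 ischemia members (17.3%, 8.23–30.3). After thinning, at least 1 of these UMIs was found in 19 of 43 (44.2%, 29.1–60.1) and 9 of 51 (17.6%, 8.40–30.9), and these intervals overlap. Of TAL cells, 0 of 813 and 0 of 560 had such a UMI. This allows up to 0.369% and 0.536% by the limit of 3 counts and has Clopper-Pearson upper bounds of 0.453% and 0.657%. Before thinning, 24 of 43 and 16 of 52 members and 4 of 814 and 8 of 560 TAL cells had such a UMI. Since fewer such cells and less of their RNA per cell can both lower a sum, the libraries were also compared within cells on each side of this split. A cell with less of this RNA can fall on the other side, so the split cannot separate them, and neither was tested. In cells with at least 2 such UMIs, the median log2 ratio of the adventitial list was -1.34 over 10 genes, beside -1.35 over all members, but it was -0.91 over the 6 genes that did not define the split and -0.72 over 7 genes without the control cell that held most UMIs of the list. Pi16 was at 0.167 (0.107–0.25), or 0.446 without its top cell, Clec3b at 0.221 (0.123–0.373) and Mfap5 at 0.442 (0.329–0.586), while Dpt was at 0.795 (0.438–1.39) and Ly6a at 2.41 (1.98–2.93), or 1.58 without its top cell. C3 was at 0.234 (0.145–0.362) there. In the other cells, the list's median was -0.42 over 3 genes. The split itself used Pi16, Clec3b, Mfap5 and Dpt, so their values within it are a description.

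On both sides, Col3a1, Timp1 and Mmp3 were higher in the ischemia library, also without the cell of that side that held most of the gene's UMIs, which is called the top cell here. Col3a1 had a ratio of 5.48 (4.78–6.3) in cells with at least 2 such UMIs and 6.97 (5.17–9.61) in the others. Without the top cell these were 3.59 and 6.06. Timp1 was at 8.04 (5.81–11.3) and 92.8 (31.6–451), the latter 53.6 without the top cell. Mmp3 was at 11.5 (6.75–20.9) and 40.7 (7.13–1627), and at 4.71 (2.53–9.15) and 4.42 (0.612–194) without the top cell, so that its interval in the other cells then held 1. Il1r1 was at 5.26 (2.14–14.7) and 13.9 (3.68–117), but on the first side 15 of the 20 ischemia UMIs came from 1 cell, without which the ratio was 1.74 (0.435–6.37), against 8.72 (2.25–74.6) on the other. Tnc had 5 and 400 UMIs in the cells with under 2 such UMIs, a ratio of 35.8 (15.2–111), while in those with at least 2 it had 0 UMIs in control cells and 83 in ischemia cells, all in 1 cell. Gsn was lower on both sides, at 0.334 (0.266–0.417) and 0.459 (0.29–0.728). Ogn was at 0.13 (0.0583–0.255) and 0.448 (0.22–0.912) and Fmo2 at 0.0575 (0.0117–0.173) and 0.269 (0.104–0.655), but without the top cell their intervals on the second side, 0.249–1.12 and 0.140–1.07, held 1. As a description, since the rule used it, Dcn differed less within the sides than over all members, at 0.73 (0.655–0.813) and 0.863 (0.641–1.17) against 0.371 (0.336–0.409). Klf2 was at 0.322 (0.122–0.727) and 0.358 (0.23–0.554), but at 1.40 on the second side without the top cell. Thbs1 was at 1.1 (0.33–3.35), with 5 of its 6 ischemia UMIs in 1 cell, and 14.1 (6.72–35.4).

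**Figure D4:**
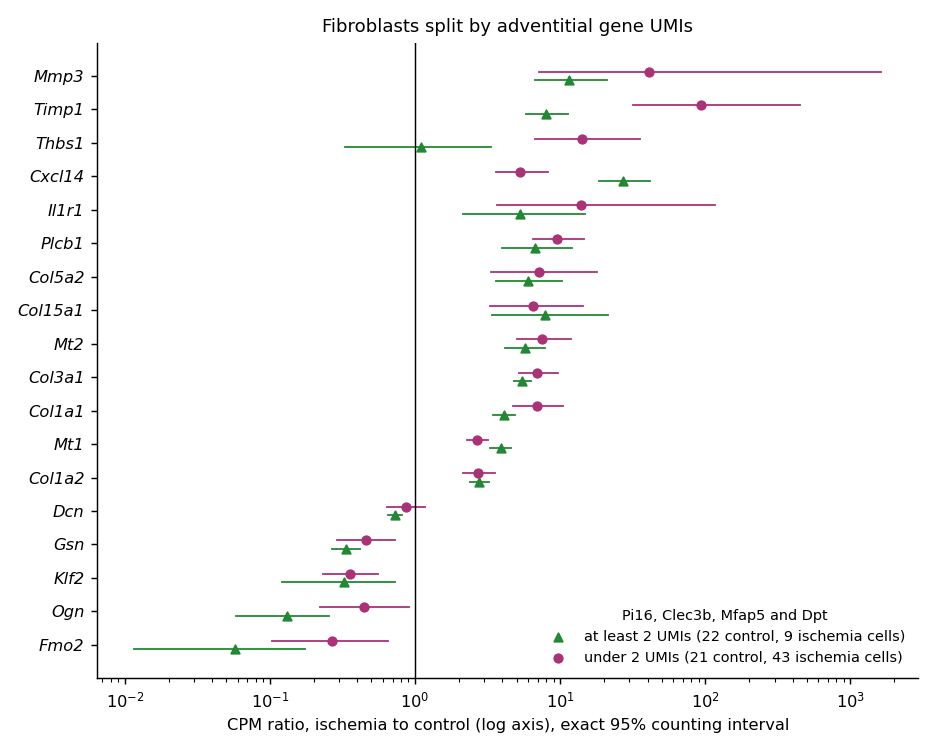
Ratios of ischemia to control CPM with exact 95% intervals (log axis) for 18 genes in fibroblasts with at least 2 UMIs of Pi16, Clec3b, Mfap5 and Dpt (green triangles, 22 control and 9 ischemia cells) and in the others (purple circles, 21 and 43 cells). Col3a1 lies at 5.48 and 6.97 and Thbs1 at 1.10 and 14.1.

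Genes of contraction and of myofibroblasts were higher in part, with 7 of 17 at least 2-fold higher and 1 at least 2-fold lower. Of all genes, 13.6% and 7.73% were. The list's median log2 ratio was 0.54. Among those higher, S100a4 had a log2 ratio of 2.59, but -0.077 without its top cell. Postn was at 1.06, but at -0.14 without members with markers of podocytes, distal tubule or Schwann cells. Tpm4, a tropomyosin, was at 3.83 (2.73–5.5), Flna, filamin A, at 2.11 (1.44–3.14) and Cdh11, a cadherin of fibroblasts, at 3.08 (2.19–4.41). Myl9 was at 0.477 (0.311–0.722) and Vim, vimentin, at 1.46 (1.22–1.74). The genes that mark mature myofibroblasts were rare in the members, with Postn at 10 and 27 UMIs, Cthrc1 at 1 and 7, Fap at 9 and 4 and Lrrc15 at 0 in both. The members leave out the 3 control and 19 ischemia cells removed by the comparison with the mural genes. Whether those cells carried these genes was not tested. Acta2, smooth muscle actin, which the rule used as a mural gene, had 14 and 21 UMIs, and this is a description.

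The metallothioneins, which bind zinc and copper, stood out among stress genes. Mt1 had 404 UMIs (1346 CPM) in control and 1542 UMIs (3956 CPM) in ischemia members, a ratio of 2.94 (2.63–3.29), and Mt2 80 UMIs (267 CPM) in control and 591 UMIs (1516 CPM) in ischemia members, a ratio of 5.69 (4.5–7.28). TAL cells held more of Mt1, at 2762 and 11369 CPM, and the part of their RNA in the members' values was not tested. Hspa5, the chaperone BiP of the endoplasmic reticulum, was at 2.15 (1.79–2.6). In all, 4 of 17 stress genes were at least 2-fold higher and 0 at least 2-fold lower, with a median log2 ratio of 0.36.

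Immediate early genes, which digestion of tissue also induces, had 1 of 18 at least 2-fold higher and 3 at least 2-fold lower, beside 13.6% and 7.73% of all genes. Their median log2 ratio was -0.27. Fos, Jun, Junb and Egr1 were at 0.784, 0.871, 0.926 and 1.13. Fosl2 was at 3.15 (1.6–6.75), and Atf3, Klf2 and Klf4 were at 0.193 (0.115–0.31), 0.402 (0.276–0.578) and 0.49 (0.269–0.873), with Atf3 at 151 and 345 CPM in TAL cells. Among transcription factors of the CCAAT family, Cebpb was at 2.03 (1.55–2.68) and Cebpd at 0.255 (0.185–0.348), in opposite directions.

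Glycolysis and hypoxia genes had 1 of 11 at least 2-fold higher, 2 lower and a median log2 ratio of 0.014, with Pkm at 2.11 (1.48–3.07), Gapdh at 0.823 and Ldha at 1.22. Interferon and MHC class I genes had 0 of 7 past 2-fold in either direction and a median of -0.0049, with B2m at 1.07 and Ifitm3 at 1.22. The list of prostaglandin, retinoid and steroid genes had 3 of 12 higher, 2 lower and a median of -0.11. Of 20 cell cycle genes, Ccnd2 alone had enough UMIs, at 1.01, and Mki67 had 6 and 0 UMIs and Top2a 1 and 6, so cycling could not be compared at this depth. The medians of the growth factor and glycolysis lists depended on the scaling, and centring turned them to -0.14 and -0.15.

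Fibroblasts were set beside the cells most like them, 124 control and 184 ischemia mural cells (smooth muscle cells and pericytes) and 837 and 906 endothelial cells, each found by its own genes. Timp1 and Cxcl14 were higher in mural cells too, at 15.2 (5.78–56.6) and 13.8 (4.55–68.2), so their difference was not seen in fibroblasts alone. Il1r1 was at 1.68 (0.963–3.09) in mural and 0.933 (0.753–1.16) in endothelial cells, against 7.02 (3.52–15.9) in fibroblasts, and Plcb1 at 1.09 (0.925–1.28) and 0.871 (0.836–0.908) against 11.0 (8.13–15.2). Thbs1 was at 2.98 (2.03–4.51) in mural cells and Tnc, with 24 and 191 UMIs there, at 4.06 (2.65–6.5), against 74.4 (31.7–230.2) in fibroblasts. Gsn, at 1.1 (0.921–1.31) in mural cells, and Col4a1, at 1.28 (1.14–1.45), were nearer 1 there. Mgp went the other way, at 1.01 (0.965–1.07) in fibroblasts against 2.91 (2.65–3.19) in mural and 2.52 (2.4–2.64) in endothelial cells. Fmo2, lower in fibroblasts, was lower in mural and endothelial cells too, at 0.346 (0.189–0.621) and 0.427 (0.351–0.518). Ogn was also lower in mural cells, at 0.569 (0.45–0.72). F3 and Prss23, lower in fibroblasts, were higher in mural cells, at 1.57 (1.13–2.24) and 1.66 (1.22–2.28). The mural cells also differed in RNA of other types. All endothelial genes of the rule were higher in mural cells of the ischemia library, from Emcn at 2.36 (1.70–3.33) to Flt1 at 29.1 (5.02–1169). The fibroblast genes of the rule ranged there from Dcn at 1.02 (0.218–6.31) to Pdgfra at 4.85 (1.75–18.7). The part of such RNA in the mural ratios was not tested. Most of these genes were named for their ratio in fibroblasts, and with 1 library per condition the difference between cell types was not tested.

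**Figure D5:**
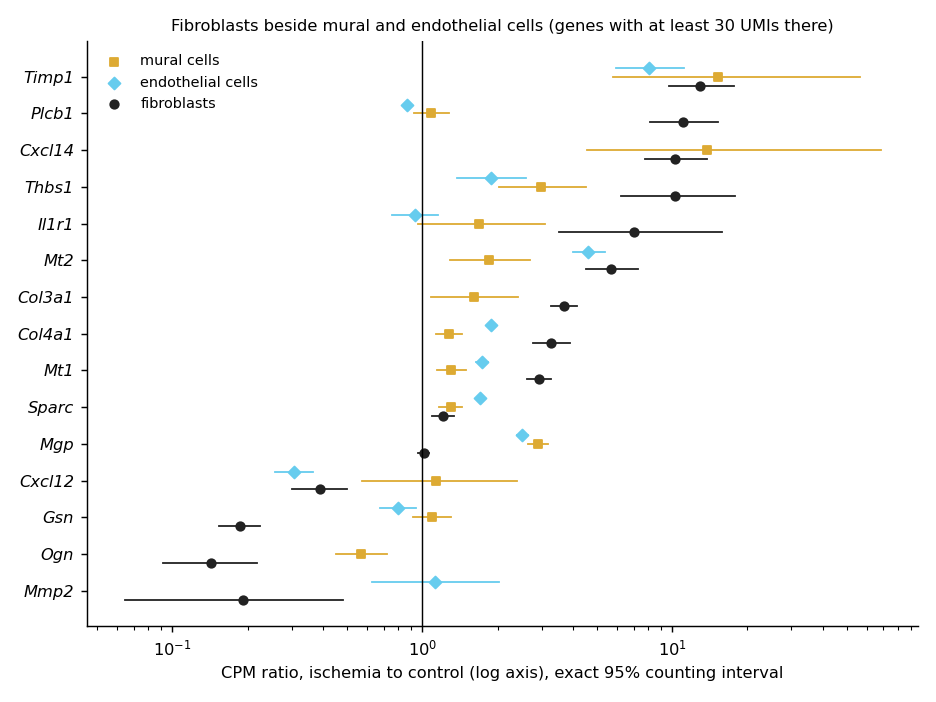
Ratios of ischemia to control CPM with exact 95% intervals (log axis) for 15 genes in fibroblasts (black circles), mural cells (yellow squares) and endothelial cells (blue diamonds), where the cell type has at least 30 UMIs of the gene. Plcb1 lies at 11.0 in fibroblasts and near 1 in the other types, Timp1 lies high in all 3, and Mgp lies near 1 in fibroblasts and above 2 in the others.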

How the data were processed

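The study's scRNAseq was run on 1 control and 1 ischemic kidney. Per the labels, the authors deposited raw UMI counts per gene and barcode from Cell Ranger 7.0.0 on build mm10, not normalized. A barcode is a droplet called as a cell, and 32285 genes are listed. No cell types were taken from the authors.

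The filters on barcodes (200 genes or more, between 500 and 150000 UMIs, mitochondrial share up to 55%) left 12586 of 15110 control and 13116 of 15257 ischemia barcodes. The members, gene lists and comparisons were chosen with earlier results of these data known. Genes were named in the text if they were (1) the 15 most enriched in members over other cells with at least 100 member UMIs, (2) the 15 of highest ratio and the 15 of lowest ratio among genes with at least 30 UMIs, found in at least 10 members of the higher library and at least 2 times as high there as in other cells, or (3) members of the lists, the rule's genes or IL-1 genes. Part 2 left out mitochondrial, ribosomal and predicted genes, and any other gene was chosen after its values were seen.

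CPM are UMIs summed over members and scaled to their total. Intervals at 95% are exact Poisson for sums, Clopper-Pearson for shares and conditional binomial for ratios. They measure counting error alone. A sum of 0 was set to 3 counts. Mural, endothelial, TAL and proximal tubule cells were taken by UMI sums of their own genes, TAL cells by at least 10 UMIs and 0.3% of Umod and Slc12a1. Positive cells were also counted after random thinning to 1000 UMIs per cell (seed 42). Scrublet in scanpy 1.11.5 called 0 cells in both libraries, so the caller did not work here, and 0 members were among the 8% of cells with the highest scores. Scripts ran in Python 3.11.15 with scipy 1.17.1, numpy 2.4.6, matplotlib 3.10.9 and pandas 2.3.3. Counts were also simulated for the comparison of ischemia with control fibroblasts, as Poisson sums per library without spread between cells. Over the 4037 genes that reached the UMI limit, 96.0% of intervals held the true ratio. Of these, 158 were changed 4-fold, and 100% of them lay past 2-fold on the correct side. Of unchanged genes, 2.27% lay past 2-fold. In the data a single cell can hold most UMIs of a gene, so these shares cover counting error only and are no yardstick for the members. Alternatives were other cell limits, depths, thresholds, scalings and weights of deep cells, and leaving out members with over 1% tubule marker UMIs or high doublet scores. Chosen after seeing the data were leaving out members with markers of other cell types, splitting members by adventitial genes and leaving out the top cell of a gene. Leaving out high doublet scores removed 0 members, so it could not change a gene value or list median, and it is counted among the unchanged values. The limit of 1000 UMIs per cell removed 1 ischemia member. Positions are from GENCODE M21. Leprel1 and Mx1 of the lists were not matched by symbol. Some genes that the naming rule or the lists hold are counted in the summaries but not reported here by name.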

Additional observations from a re-analysis of the deposited data

Results flagged for a closer look

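Among 207 named or listed genes that had at least 30 UMIs in mural cells as well, 3 lay past 2-fold in one direction in fibroblasts and past 2-fold in the other in mural cells, which is what drew attention to them. Cd34, an adhesion protein of stroma and endothelium, was lower in ischemia fibroblasts, at a ratio of 0.395 (0.215–0.706), and higher in ischemia mural cells, at 5.44 (1.70–27.8), from 3 control and 32 ischemia UMIs there. Tnxb, tenascin-X, was at 0.253 (0.147–0.419) and 4.21 (1.5–16.4), from 4 and 33 mural UMIs. Vcam1, an adhesion receptor for leukocytes, was at 2.03 (1.40–2.98) in fibroblasts and 0.352 (0.215–0.568) in mural cells, from 45 and 31 mural UMIs. Mural cells of the ischemia library also held more of the endothelial genes of the rule, with Flt1 at 1 and 57 UMIs, and of Pdgfra, at 4 and 38. The part of such RNA in the mural values of Cd34 and Tnxb was not tested. With 1 library per condition, the difference between cell types was not tested for these genes. Without the cell that held most of its UMIs, Vcam1 in fibroblasts had a log2 ratio of -0.096.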

How the results depend on the processing

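No paired analysis was possible because there was 1 library per condition. Of the 18 list medians, 8 kept their sign under the alternatives run and 10 did not. Of the latter, 6 lay within 0.2 of 0, and 35 of their 96 alternative values had the other sign, from -0.57 to 0.82 in all. The others turned in 7 values. Proteases turned to -0.040 and cytokines from 0.85 to -0.11 after thinning. Matrix glycoproteins turned to -0.091 as a mean of cell CPM and -0.0040 without the deepest members. The TGF-beta list turned to -0.32 without members over 1% tubule marker UMIs, -0.25 after thinning and -0.38 with at least 100 UMIs per gene. With at least 1000 UMIs per cell the members were 0.476% of control and 0.647% of ischemia cells, and with at least 8 UMIs of the 4 genes 0.262% and 0.252%, so that the order of the libraries turned from 0.342% and 0.396%. The genes past 2-fold numbered 126 higher and 73 lower with at least 100 UMIs per gene, of 1026, and 1380 and 918 with at least 10, of 8248, so these counts depended on the limit of UMIs per gene. After thinning to 1000 UMIs, list medians were 0.20 for collagen processing, 0.13 for cytokine receptors, 1.08 for stress and -0.54 for interferon genes, and collagen processing was at 0.13 as a mean of cell CPM. In splits chosen after seeing the data, medians were -0.42 for adventitial (3 genes) and 1.01 for matrix genes in members with under 2 adventitial UMIs, and 1.31 for stress genes in those with at least 2. For these medians the cause was not tested.

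Among the alternative values of single genes over the members, 3195 lay within the interval of the reported ratio and 504 outside it, and a further 18 values, of genes past 2-fold, changed sign, while sign changes of genes within 2-fold were not counted apart. The 3195 include the values without cells of high doublet score, a setting that removed 0 members and could not differ. The 18 are given first, as log2 ratios. After thinning, Adamts2 was at -0.47, Adamts9 at -0.83, Bmp1, Tgfbi, Tnfrsf12a and Vcam1 at -0.25 each and Ndrg1 at 0.034. In members with at least 2 adventitial UMIs, Adamts4 was at -1.12, Ptges at 1.46 and Serpinf1 at 0.068, and in the others Scara5 was at 1.43 and Vcam1 at -1.16. Ltbp2 was at -2.06 without members with mesangial genes, Postn at -0.14 without members with markers of other types, and S100a4 at -0.014 with at least 8 UMIs. Without the top cell, S100a4 was at -0.077, Sfrp4 at 0.17 and Vcam1 at -0.096. Apart from these, within members with under 2 adventitial UMIs Klf2 was at 0.48 without its top cell. The cause was not tested. The 95 cells limit genes under about 30 UMIs, which were not compared.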
